A study of Mus musculus with 12 samples.

Results

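The difference between tumour sites in the response to PLX4720 was examined across all 12 of the 12 libraries of the series. The libraries come from 6 mouse liver cancer cell lines, 3 established from primary liver tumours (T1, T2, T3) and 3 from lymph node metastases (M1, M2, M3). The labels give every line the genotype BRAFV600E; p53 KO, and each line gave 1 library after 48 h with 2 µM PLX4720, an inhibitor of mutant BRAF, and 1 after 48 h with the solvent DMSO. By the labels, controls and treated cells thus carry the same alleles. The design text places BRAF V600E in hepatocytes and names a deletion of either Trp53 or Cdkn2a, without saying which line had which. Trp53 was counted at 4.09 to 8.55 CPM in primary and 2.79 to 4.86 CPM in metastasis libraries, and a count over the whole gene does not show whether a deleted part is missing. Cdkn2a was at 0 to 0.466 CPM in M1 and M2 and at 79.2 to 254 CPM in the other 4 lines. Neither a clonal origin nor the animal behind each line is stated. One number recurs in the table names of T3, M2 and M3, and whether these share an origin is not given. P-values rest on how far the change with PLX4720 within a line varied among the 3 lines of a site. All 12 libraries were in 1 fit, so both sites share the estimate of that spread.

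Genes were chosen by the interaction contrast, which is the change with PLX4720 in the metastasis lines minus the change in the primary lines, with the cell line as a block. A gene counted as expressed at both sites when its mean level was at least 1 CPM (fragment counts scaled to a common library size, not divided by gene length) over the 6 libraries of each site, which held for 11449 of the 16555 genes tested. Among those genes with an adjusted p under 0.05 for the interaction, "opposite" means that the changes at both sites passed the same threshold with opposite signs. "Metastasis only" and "primary only" mean that the change passed at that site, while at the other it did not pass and was under 0.3 on the log2 scale. These 3 classes held 25, 173 and 26 genes. Since the tests define the classes, the values of single genes are given as their description.

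BRAF is a kinase that activates MEK and then ERK, and the V600E form signals without an upstream receptor. ERK switches on immediate early genes such as Jun and Fos and also its own brakes, the DUSP phosphatases and Sprouty proteins. When ERK output falls, those brakes fall as well, and receptors that had been held down can signal again, which is known for BRAF inhibitors in epithelial cancers. Cell lines from different sites can carry different receptors and transcription factors, so the same drug can meet different circuits.

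Library totals ran from 31992512 to 39288748 fragments. The mitochondrial share was 0.189% to 0.712% in 11 libraries, and 3.67% in the treated library of T3. The labels call cells of both sites hepatocellular carcinoma, and the markers of that cell type differed between sites. Summed over 22 hepatocyte markers, levels were 908 to 2052 CPM in primary libraries and 6.42 to 55.9 CPM in metastasis libraries, and 8 of the 22 were under 1 CPM everywhere. Most of the primary sum was Apob, at 627 to 1560.5 CPM, while Alb was at 0.132 to 15.8 CPM there and at 0 in metastasis libraries. The hepatocyte factor Hnf4a was at 121 to 266 CPM in primary and at most 0.203 CPM in metastasis libraries. Over 12 cholangiocyte markers the sums were 2185 to 5333 CPM in primary and 1208 to 9104 CPM in metastasis libraries. Krt19, a bile duct keratin, was at 830.1 to 1347 CPM in primary and 0.149 to 8.60 CPM in metastasis libraries, and Spp1, osteopontin, at 436 to 4389 CPM and 1187 to 9079 CPM. Summed over 16 fibroblast and stellate markers, the range was 2.51 to 77.3 CPM in primary libraries, 2303 to 6069 CPM in metastasis libraries with DMSO and 6855 to 15595 CPM in those with PLX4720. Of 21 leukocyte markers, Adgre1, Ms4a1, Nkg7 and Tyrobp were at 0 fragments everywhere and Ptprc stayed under 1 CPM. The summed level was 27.7 to 103 CPM with DMSO and 10.1 to 68.0 CPM with PLX4720. Most of it was Cd14, at 5.91 to 55.3 CPM, Mrc1, at 0 to 39.7 CPM, and Cd53, at 0.0303 to 31.4 CPM, and Csf1r reached 8.72 CPM. Endothelial markers summed to 3.58 to 93.5 CPM in primary and 0.803 to 2.96 CPM in metastasis libraries. Much of the primary sum was Tek in T1, at 35.1 to 69.6 CPM, and Flt4 in T3, at 45.8 to 52.1 CPM. Of the 14 markers, 8 were under 1 CPM everywhere, Pecam1 and Tie1 among them. In such bulk RNA, fewer cells of a type and less RNA per cell cannot be told apart. Col1a2, a fibroblast collagen, was at 0 to 0.684 CPM in primary and 398 to 6867 CPM in metastasis libraries. For Hnf4a and Col1a2 the levels of the sites did not overlap, so site and kind of cell cannot be separated in these lines. Whether the responses follow site, kind of cell or the Cdkn2a level was not tested.

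The response to PLX4720 differed between sites for 487 genes (2.94% of those tested by edgeR's quasi-likelihood test), with a more positive change in metastasis lines for 306 (1.85%) and a more negative one for 181 (1.09%). In metastasis lines 1994 genes rose (12% of those tested) and 1384 fell (8.36%), against 738 (4.46%) and 624 (3.77%) in primary lines. A change called at 1 site alone was not by itself a difference between sites. Of 2689 genes called in metastasis lines and not in primary lines, 346 had a called interaction, and of 673 called in primary lines and not in metastasis lines, 47 did. The per-line changes were wider in metastasis lines as well: log2(CPM + 1) moved by more than 1 for 5.85% to 7.00% of genes expressed at both sites in M1, M2 and M3, and for 1.43% to 2.54% in T1, T2 and T3. Per-line changes did not overlap between sites for 3854 genes (23.3% of those tested), among them 448 of the 487.

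Of the 487 genes, 409 were expressed at both sites. Apart from the 25 opposite, 173 metastasis-only and 26 primary-only genes, 58 changed in the same direction by unequal amounts, 53 of them more in metastasis lines. A further 127 fell in none of these classes, mostly because 1 site passed and the other did not pass but moved by 0.3 or more. Metastasis-only genes split into 110 that rose and 63 that fell, and primary-only genes into 16 and 10. All 487 kept the sign of their interaction without any 1 line, but with fewer lines many no longer passed. These refits reuse libraries on which the genes were chosen, so kept signs were to be expected and are no separate evidence. The interaction remained called for between 121 (without T2) and 446 (without M1), and for 154 without T1, 216 without T3 and 228 without M2. Total calls of the contrast were 160, 122 and 243 without T1, T2 and T3, and 798, 257 and 295 without M1, M2 and M3. Of the 487, the sign was kept for 483 of 484 tested in T3, M2 and M3 alone and for 484 of 487 in T1, T2 and M1 alone. Each of these subsets has 1 line at one site, which is assumed to vary like the lines of the other, so their numbers of calls are given in the closing section alone.

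**Figure D1:**
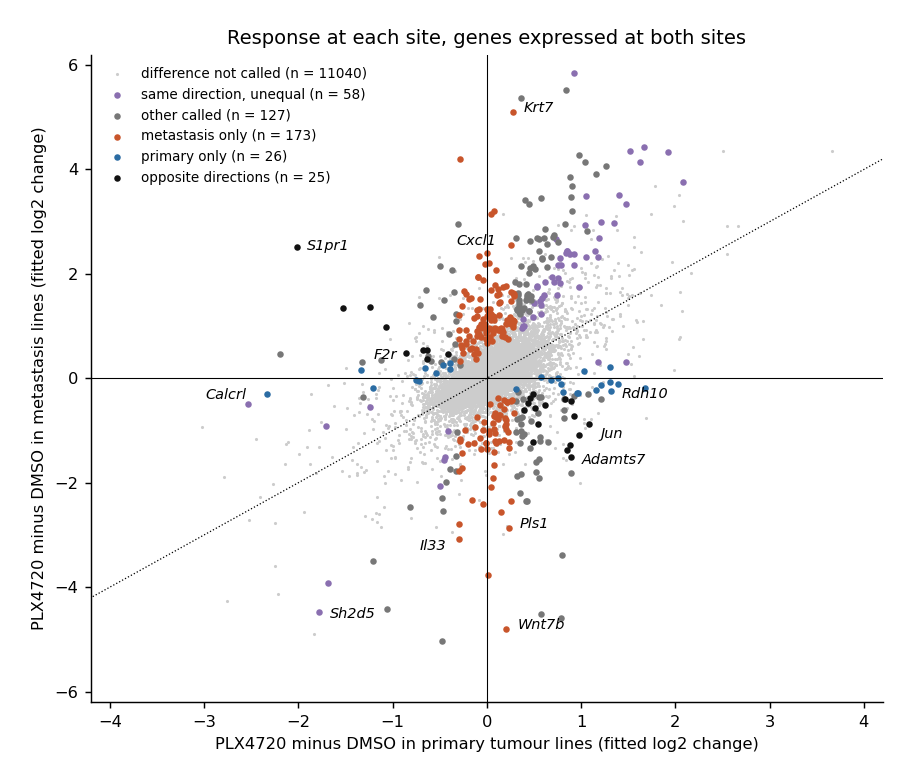
Fitted log2 change with PLX4720 in primary tumour lines (x axis) and in metastasis lines (y axis) for genes expressed at both sites, 1 point per gene, with the dotted line marking equal changes. The 25 opposite genes (black) lie in the upper left and lower right, the 173 metastasis-only genes (orange) along the vertical axis and the 26 primary-only genes (blue) along the horizontal axis.

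Genes of the opposite class made up 0.218% of the genes expressed at both sites. In 9 of the 25 the level rose in metastasis lines and fell in primary lines, and several of these encode proteins of the cell surface. S1pr1 (chromosome 3, 115710433 to 115715072, minus strand, GRCm38) encodes a receptor for the lipid sphingosine 1-phosphate that guides the exit of cells from lymph nodes, and it showed the widest gap of the class. With PLX4720 it went from 7.34 to 55.3 CPM in M1, from 15.2 to 81.4 in M2 and from 6.74 to 31.5 in M3. In primary lines it went from 12.1 to 2.98 CPM in T1, from 0.263 to 0.163 in T2 and from 0.529 to 0.0267 in T3, with at most 21 fragments in any library of T2 and T3, so T1 carried most of its signal there. All 3 metastasis lines were higher with PLX4720 and all 3 primary lines lower. The fitted log2 changes were 2.52 ± 0.21 and -2.02 ± 0.33 (edgeR adjusted p = 0.000141 and 0.0135), and the difference was 4.54 ± 0.39 (SE, edgeR adjusted p = 0.00248).

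F2r, the thrombin receptor PAR1, was abundant at both sites. It rose from 337 to 463 CPM in M1, from 225 to 339.9 in M2 and from 229.9 to 301 in M3, while it fell from 85.1 to 47.99 CPM in T1, from 305 to 192 in T2 and from 753 to 356 in T3. The changes per line did not overlap between sites, and the fitted difference was 1.34 ± 0.14 (SE, edgeR adjusted p = 0.00389). Adam9, a membrane protease of the ADAM family, behaved alike at lower amplitude, with log2 changes of 0.36 in metastasis and -0.63 in primary lines and a difference of 1.00 ± 0.13 (SE, edgeR adjusted p = 0.00851). Its level with DMSO was 126 to 252 CPM in metastasis and 324 to 517 CPM in primary lines. Ehbp1l1, a protein of endocytic membrane traffic, rose by 0.47 and fell by 0.42 on the log2 scale.

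Adhesion and channel genes of this group were far from equally expressed. Cdh17, a cadherin of liver and intestinal epithelium, fell from 262 to 101 CPM in T1, from 315 to 133 in T2 and from 156 to 39.9 in T3. In metastasis lines it lay at 0.119 to 3.72 CPM and rose, with a log2 change of 1.34 ± 0.32 on at most 128 fragments per library. Aqp5, a water channel, fell by 1.24 in primary lines, with DMSO levels of 16.5 to 200.7 CPM, and rose by 1.37 in metastasis lines, with DMSO levels of 1.28 to 2.06 CPM. Cadm1, an immunoglobulin adhesion molecule, had a difference of 1.22 ± 0.19 (SE, edgeR adjusted p = 0.0154) but was nearly silent in M3, at 0.145 and 0.0872 CPM. Megf10, an engulfment receptor, was at 0 in both libraries of T1, so its primary value of -1.07 came from T2 and T3. Oasl1, an antiviral protein of the oligoadenylate synthetase family, rose from 19.7 to 22.4 CPM in M1, from 1.87 to 2.70 in M2 and from 47.8 to 89.4 in M3. In primary lines its log2 change was -0.64 ± 0.14.

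In the other 16 opposite genes the level fell in metastasis lines and rose in primary lines. Jun (chromosome 4, 95049034 to 95052222, minus strand), which encodes the AP-1 subunit c-Jun and is a textbook immediate early gene, was among them. It went from 38.5 to 134 CPM in T1, from 26.7 to 45.5 in T2 and from 38.3 to 61.9 in T3. In metastasis lines it went from 245 to 164 CPM in M1, from 241 to 100.4 in M2 and from 161 to 94.8 in M3. With DMSO every metastasis line lay above every primary line, and with PLX4720 the ranges of the sites met, at 45.5 to 134 CPM and 94.8 to 164 CPM. The log2 changes of 1.09 ± 0.21 and -0.87 ± 0.21 gave a difference of -1.96 ± 0.30 (SE, edgeR adjusted p = 0.015). Of the 20 immediate early and AP-1 genes listed, Jun alone had a called interaction (2.94% of all genes did). The list's median change was 0.17 at the primary and 0.30 at the metastasis site.

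Ifngr2, a subunit of the interferon gamma receptor, rose from 52.6 to 100.1 CPM in T1, from 61.5 to 95.1 in T2 and from 54.1 to 103 in T3, and it fell from 95.1 to 82.7 CPM in M1, from 102 to 66.2 in M2 and from 79.8 to 62.9 in M3. The log2 changes were 0.83 ± 0.11 and -0.39 ± 0.11, with a difference of -1.22 ± 0.15 (SE, edgeR adjusted p = 0.00692). Primary lines with PLX4720 reached the range that metastasis lines had with DMSO, 79.8 to 102 CPM. Camk1d, a calcium/calmodulin-dependent kinase, rose by 0.89 in primary lines and fell by 0.43 in metastasis lines, a difference of -1.32 ± 0.18 (SE, edgeR adjusted p = 0.0109).

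Adamts7, a secreted protease of cartilage and vessel matrix, differed most among these 16, by -2.41 ± 0.25 (SE, edgeR adjusted p = 0.00389). It fell from 47.4 to 21.1 CPM in M1, from 31.3 to 9.34 in M2 and from 15.7 to 5.03 in M3, and rose from 2.09 to 4.63 CPM in T1, from 1.00 to 2.26 in T2 and from 10.9 to 15.9 in T3. Exons of Tbc1d2b on the other strand share bases with it, and that gene held 316% as many fragments, so Adamts7 may have gained or lost fragments through it. Pmaip1, which encodes the pro-apoptotic BH3 protein NOXA, rose from 35.96 to 63.2 CPM in T1, from 15.6 to 26.7 in T2 and from 13.2 to 25.3 in T3. In metastasis lines it was low, at 1.45 to 2.56 CPM with DMSO, and fell to 0.516 to 1.10 CPM on 17 to 40 fragments. Of 17 apoptosis regulators tested, Pmaip1 was the one with a called interaction (2.94% of all genes had one), of -2.23 ± 0.31 (SE, edgeR adjusted p = 0.0103).

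Transporters and metabolic enzymes were represented too. Slc22a4, a carrier of ergothioneine and carnitine, had log2 changes of 0.88 in primary and -1.29 in metastasis lines, and Slc6a8, the creatine transporter, 0.62 and -0.51. Gclc, the catalytic subunit of the enzyme that limits glutathione synthesis, rose from 152 to 196 CPM in T1, from 128 to 179 in T2 and from 87.9 to 127 in T3, and fell from 125 to 107 CPM in M1, from 98.8 to 64.3 in M2 and from 70.97 to 56.9 in M3. Its difference was -0.85 ± 0.13 (SE, edgeR adjusted p = 0.0155). Lpin3, a phosphatidate phosphatase, changed by 0.93 and -0.73. The remaining members were Rab7b, Osbpl3 and Myo1e, which act in vesicle traffic, lipid transfer and membrane-cytoskeleton contact, the surface proteins Tspan15 and Igsf11, and Lancl3 and 4930402H24Rik. Their interaction values ran from -2.06 (Lancl3) to -0.79 (Myo1e). Igsf11 was near 0 in M2 and M3, and without M1 its value no longer passed (-1.13, edgeR adjusted p = 0.569).

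Both signs were kept in all 25 genes without any 1 line, which was to be expected of genes chosen on the same libraries. The interaction remained called for 17, 14 and 23 genes when T1, T2 or T3 was left out and 24, 21 and 20 when M1, M2 or M3 was. Membership of the class, which also needs a call at each site, was kept by 2, 4, 13 genes without T1, T2 and T3 and 17, 8, 13 without M1, M2 and M3, and by 19 with limma-voom. In 13 genes the interaction remained called in each of these 6 fits: S1pr1, F2r, Cdh17, Adam9, Adamts7, Pmaip1, Slc22a4, Lancl3, Jun, Rab7b, Camk1d, Ifngr2 and Tspan15. With a mean of at least 5 CPM at each site 17 of the 25 remained in the class, and with at least 1 CPM in each of the 4 groups 23 did. A count by line without a model, in which all 3 lines of a site share one sign and all 3 of the other site the opposite one, gave 452 genes (3.95% of those expressed at both sites), 216 higher and 236 lower with PLX4720 in metastasis lines, and 120 of them had a called interaction. Lines of random sign would give some such genes too, and how many was not tested.

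**Figure D2:**
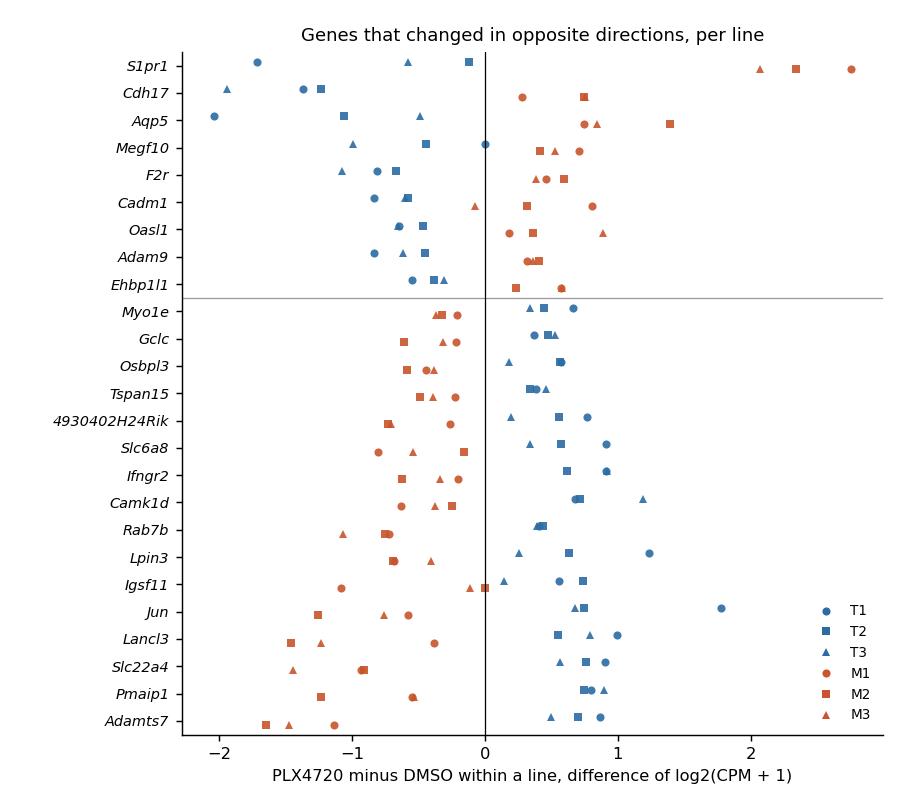
Change with PLX4720 in each line (difference of log2(CPM + 1), x axis) for the 25 opposite genes, blue for primary and orange for metastasis lines, with 1 marker shape per line. Upper rows are the 9 genes that rose in metastasis lines and lower rows the 16 that fell there, and apart from T1 in Megf10, M3 in Cadm1 and M2 in Igsf11 every line lies on the side of its site.

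**Figure D3:**
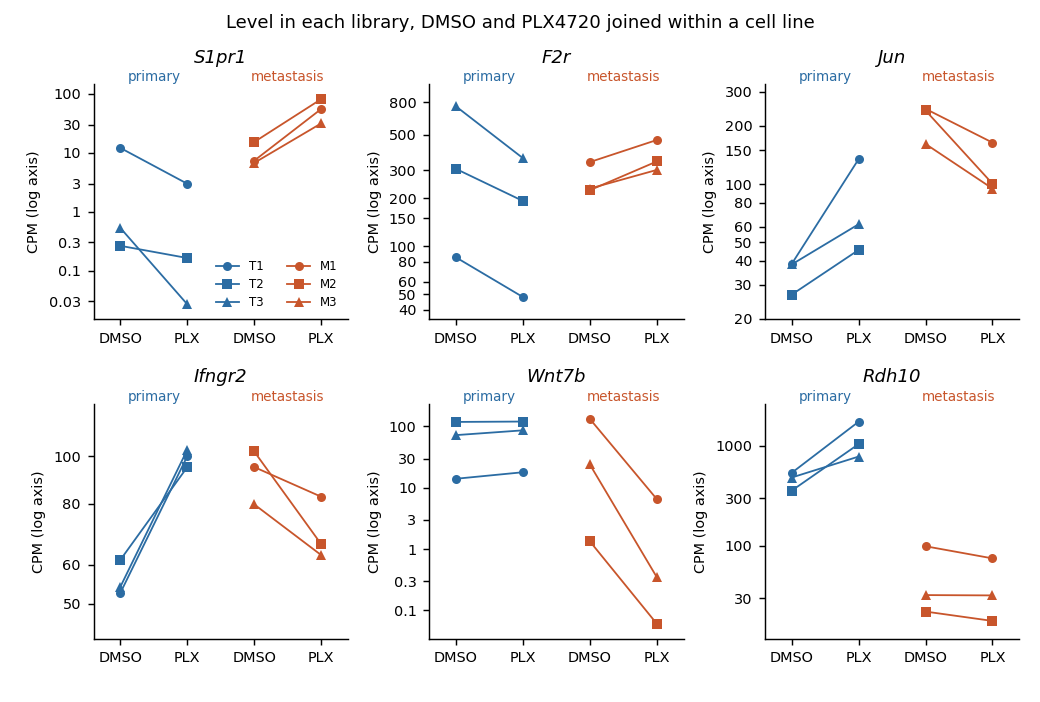
Level in CPM (log axis) of 6 genes in each of the 12 libraries, with DMSO and PLX4720 of the same line joined. S1pr1 and F2r rise in metastasis and fall in primary lines, Jun and Ifngr2 do the reverse, Wnt7b falls in metastasis lines and Rdh10 rises in primary lines.

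Among the 63 metastasis-only genes that fell, Wnt7b, a secreted WNT ligand (chromosome 15, 85535437 to 85582473, minus strand), had the largest change. It dropped from 133 to 6.54 CPM in M1, from 1.34 to 0.0606 in M2 and from 23.99 to 0.349 in M3, on 2 to 239 fragments with PLX4720. The primary lines went from 14.04 to 17.9 CPM in T1, from 119 to 120.3 in T2 and from 72.3 to 86.5 in T3. Every metastasis line fell by more than 10-fold in CPM while no primary line was lower with PLX4720. The log2 change was -4.80 ± 0.28 against 0.21 ± 0.19, with a difference of -5.00 ± 0.34 (SE, edgeR adjusted p = 0.00134). Of 28 Wnt pathway genes tested, 2 had a more positive change in metastasis lines (1.85% of all genes did), the receptors Fzd1 and Lrp6. Wnt7b was the one with a more negative change (1.09%).

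Il33, an alarmin cytokine stored in the nucleus, fell from 224 to 29.5 CPM in M1, from 89.5 to 13.5 in M2 and from 38.7 to 2.91 in M3. Its primary levels were 110.1 to 194 CPM with DMSO and 101 to 135 CPM with PLX4720, a log2 change of -0.29 ± 0.18, and the difference was -2.79 ± 0.27 (SE, edgeR adjusted p = 0.00299). Pls1, an actin-bundling plastin of epithelial microvilli, had the smallest interaction p of this class. Its log2 change was -2.86 ± 0.13 in metastasis lines, with DMSO levels of 1.19 to 17.5 CPM, and 0.23 ± 0.09 in primary lines, with DMSO levels of 55.9 to 146 CPM, a difference of -3.10 ± 0.16 (SE, edgeR adjusted p = 0.000313). Padi2, an enzyme that converts arginine to citrulline in proteins, had log2 changes of -2.80 in metastasis and -0.29 in primary lines, and Gfra1, a receptor for GDNF, -2.56 and 0.15.

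Dkk2, a secreted WNT antagonist, was high in metastasis lines with DMSO, at 193 to 805 CPM, and fell to 36.3 to 146 CPM. In primary lines it lay at 0.214 to 29.9 CPM, and the 3 lines did not share a direction. Its difference of -2.60 ± 0.52 (SE, edgeR adjusted p = 0.0353) became -1.44, edgeR adjusted p = 0.119 without T1 and -0.26 in T3, M2 and M3 alone. Add2, a membrane skeleton protein, had log2 changes of -2.40 in metastasis and -0.04 in primary lines. Nefl, a neurofilament subunit, was present in T1 alone among primary lines, and without T1 its difference was not called (-3.82, edgeR adjusted p = 1.00). Over the 63 genes the interaction remained called for 20, 13 and 29 genes when T1, T2 or T3 was left out and 59, 26 and 35 when M1, M2 or M3 was.

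The glutathione and NRF2 list had 3 of 19 tested genes with a more negative change in metastasis lines (1.09% of all genes) and none with a more positive one. NRF2 is a transcription factor that turns on antioxidant enzymes. Besides Gclc they were Gsr, glutathione reductase, and Srxn1, sulfiredoxin. Srxn1 fell from 297 to 204 CPM in M1, from 179 to 99.9 in M2 and from 167 to 89.7 in M3, and its primary log2 change was 0.19 ± 0.12. Gsr fell by 0.72 in metastasis lines, with 0.08 in primary lines, where its level was 467 to 525 CPM. The list's median change was 0.19 at the primary and -0.10 at the metastasis site, and the calls that remained numbered 1, 0 and 2 genes when T1, T2 or T3 was left out and 3, 1 and 1 when M1, M2 or M3 was.

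The 110 metastasis-only genes that rose began from very different levels. Krt7, a keratin of bile duct epithelium, and Igf2bp1, an oncofetal RNA-binding protein, were near 0 in metastasis lines with DMSO, at 0 to 0.149 CPM and 0.209 to 0.929 CPM. They rose to 1.23 to 3.90 CPM and 0.876 to 9.63 CPM there. Primary lines held 11.7 to 241 CPM of Krt7 and 11.6 to 63.3 CPM of Igf2bp1, with log2 changes of 0.27 and 0.04. With PLX4720 metastasis lines stayed below the primary range for both genes. Both thus count as expressed at both sites only through their treated metastasis libraries. When a mean of at least 1 CPM was required in each of the 4 groups, 164 of the 173 metastasis-only genes remained. The differences were 4.83 ± 0.59 (SE, edgeR adjusted p = 0.00692) for Krt7, on at most 134 fragments per metastasis library, and 3.11 ± 0.29 (SE, edgeR adjusted p = 0.00298) for Igf2bp1.

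Cxcl1, a chemokine that attracts neutrophils, rose from 3.55 to 19.96 CPM in M1, from 4.17 to 20.9 in M2 and from 5.23 to 37.1 in M3. In primary lines it went from 4.82 to 5.41 CPM in T1, from 75.3 to 73.2 in T2 and from 14.7 to 22.8 in T3, and the difference was 2.30 ± 0.22 (SE, edgeR adjusted p = 0.00299). Its relative Cxcl5 had a difference of 3.01 ± 0.34 (SE, edgeR adjusted p = 0.00509), with a primary log2 change of 0.40 ± 0.19. Cdc42ep3, an effector of the small GTPase CDC42, had log2 changes of 2.19 in metastasis and -0.02 in primary lines, and Kif21b, a kinesin motor, 2.08 and 0.09. Adra1d, an adrenergic receptor, and Kirrel3, a cell adhesion molecule, had log2 changes of 3.20 and 2.21 in metastasis lines against 0.08 and 0.02 in primary lines. Gulp1, an engulfment adaptor, was expressed in T1 alone among primary lines, with 0 to 16.7 CPM over the 6 libraries, and its fitted difference of 2.03 was 6.17, edgeR adjusted p = 0.132 without T1, where the primary level was at 0 with PLX4720 and a fitted change depends on the prior count.

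Receptor and feedback genes of the ERK pathway were counted apart. Egfr, the epidermal growth factor receptor, rose from 12.5 to 37.4 CPM in M1, from 1.70 to 6.64 in M2 and from 1.28 to 2.73 in M3, against a move from 73.2 to 103 CPM in T1, from 54.9 to 65.97 in T2 and from 153 to 165 in T3 in primary lines, with a log2 change of 0.29 ± 0.13 there and a difference of 1.29 ± 0.20 (SE, edgeR adjusted p = 0.0154). Of 20 receptor tyrosine kinases tested, Egfr was the one with a more positive (1.85% of all genes) and Fgfr3 the one with a more negative change (1.09%) in metastasis lines. Fgfr3 rose from 11.5 to 57.5 CPM in T1, from 13.6 to 61.6 in T2 and from 7.68 to 27.01 in T3 and stayed under 0.41 CPM in metastasis lines, so it did not count as expressed at both sites. Of 23 genes of ERK output, 14 fell in metastasis lines (8.36% of all genes did) and 7 in primary lines (3.77%), and 2 had a called interaction (2.94%). These 2 were Spry1, a feedback inhibitor, and the ephrin receptor Epha4, with log2 changes of 0.94 ± 0.10 and 2.34 ± 0.41 in metastasis lines and 0.16 ± 0.10 and -0.08 ± 0.27 in primary lines. Spry1 thus moved against the fall of most of its list. Dusp6, a direct ERK phosphatase, fell by 0.91 in primary and 1.95 in metastasis lines, and its difference of -1.04 ± 0.29 did not pass (edgeR adjusted p = 0.11). Without T1, T2, T3, M2 or M3 the interactions of Spry1 and Epha4 were not called, with edgeR adjusted p up to 0.117 and 0.136, while that of Egfr missed without T2 or T3 (up to 0.0685). The difference of Epha4 was 1.39, edgeR adjusted p = 0.0804 without M2.

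Over the 110 genes the interaction remained called for 23, 16 and 40 genes when T1, T2 or T3 was left out and 104, 40 and 51 when M1, M2 or M3 was. In the 6 fits that leave out 1 line, 10 of these genes were called each time, among them Acss2, Anxa6, Col5a1, Crybg1, Cxcl1, Igf2bp1, Krt7, Mettl7a1 and Msrb1. Of these, Krt7 and Igf2bp1 met the level rule at the metastasis site only through treated libraries. Of the 63 that fell, Il33, Padi2, Pls1 and Wnt7b were among 10 such genes. Acss2, which makes acetyl-CoA from acetate, had log2 changes of 1.75 ± 0.13 in metastasis and 0.17 ± 0.12 in primary lines, but exons of genes on the other strand share bases with it, and 1 of them, Gss, held 278% as many fragments.

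Primary-only genes were fewer, 16 that rose and 10 that fell. Rdh10 (chromosome 1, 16105774 to 16133734, plus strand), which oxidizes retinol to retinal in the first step of retinoic acid synthesis, was the most abundant of those named. It rose from 535 to 1734 CPM in T1, from 356 to 1036 in T2 and from 481 to 778 in T3. In metastasis lines it went from 99.2 to 75.1 CPM in M1, from 22.1 to 17.8 in M2 and from 32.3 to 32.05 in M3, a log2 change of -0.24 ± 0.18. No metastasis line was higher with PLX4720, and the difference was -1.56 ± 0.25 (SE, edgeR adjusted p = 0.0177). Ahr, the aryl hydrocarbon receptor, a ligand-activated factor of xenobiotic metabolism, rose from 71.9 to 164 CPM in T1, from 258 to 461 in T2 and from 55.4 to 98.8 in T3. Its metastasis log2 change was -0.27 ± 0.11 at DMSO levels of 12.1 to 43.6 CPM, and the difference was -1.23 ± 0.16 (SE, edgeR adjusted p = 0.00773). Mras, a RAS-related GTPase that activates the SHOC2 phosphatase complex upstream of RAF, rose from 57.9 to 135 CPM in T1, from 31.8 to 63.2 in T2 and from 11.5 to 38.2 in T3, against a move from 72.3 to 67.4 CPM in M1, from 59.7 to 49.7 in M2 and from 42.4 to 47.4 in M3 in metastasis lines. Its difference was -1.37 ± 0.20 (SE, edgeR adjusted p = 0.0122).

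Other primary-only genes rose as well. Aldh3a1, an aldehyde dehydrogenase, and Cbr3, a carbonyl reductase, rose by 1.39 ± 0.20 and 1.68 ± 0.24 in primary lines, with values of -0.11 and -0.18 in metastasis lines. Aspa, an aminoacylase, rose by 1.21 in primary lines, with -0.13 in metastasis lines. Hdac5, a class II histone deacetylase, rose by 0.96 in primary lines, and Eps8l2 and Prag1, regulators of the cytoskeleton and of signalling, by 1.03 and 1.16. Metastasis values of these 3 were -0.28, 0.15 and -0.22.

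Of the 10 primary-only genes that fell, Calcrl, the receptor for calcitonin gene-related peptide and adrenomedullin, changed most. It fell from 80.97 to 13.5 CPM in T1, from 2.34 to 1.12 in T2 and from 22.6 to 3.24 in T3, and its metastasis level was 17.9 to 50.8 CPM with DMSO and 12.7 to 41.7 CPM with PLX4720. The difference was 2.04 ± 0.36 (SE, edgeR adjusted p = 0.0236). Il4ra, the interleukin 4 receptor chain, had overlapping levels at the 2 sites with DMSO, 59.6 to 139 CPM and 41.7 to 135 CPM. It fell by 0.75 in primary lines, with -0.03 ± 0.09 in metastasis lines. Rps6ka2, the ERK-activated kinase RSK3, fell by 0.72 in primary lines, with -0.06 ± 0.10 in metastasis lines. Fkbp11, Nt5c3, Tpst1, Zfp365 and Fam126b completed the named set, with primary changes of -1.20, -0.66, -0.54, -1.34 and -0.47. Their metastasis values were -0.19, 0.19, 0.10, 0.16 and 0.26.

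Of the 26 primary-only interactions, those still called numbered 4, 6 and 6 genes when T1, T2 or T3 was left out and 24, 4 and 9 when M1, M2 or M3 was, and Ahr, Mras and 1190002N15Rik passed in all 6 of these fits. Every one of the 10 that fell lost its call without some line, and Rps6ka2 whichever of the 6 was left out, with interaction values of 0.55 to 0.67 and edgeR adjusted p up to 0.175.

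**Figure D4:**
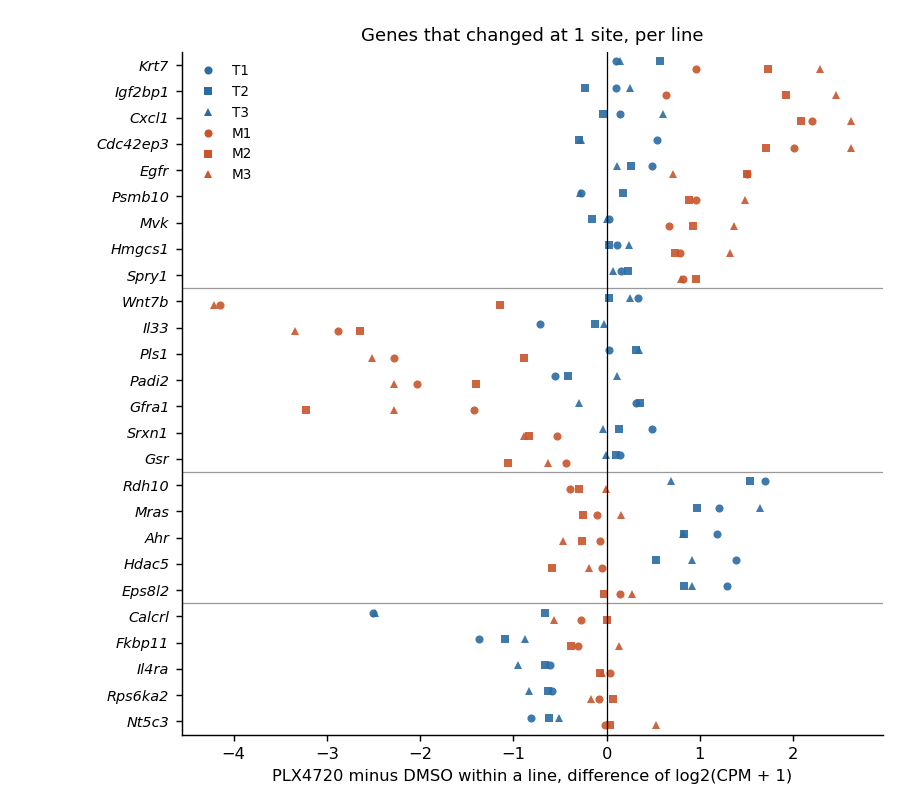
Change with PLX4720 in each line (difference of log2(CPM + 1), x axis) for 26 genes of the one-site classes, blue for primary and orange for metastasis lines. From top to bottom the blocks are metastasis-only genes that rose, metastasis-only genes that fell, primary-only genes that rose and primary-only genes that fell. At the other site the fitted change was under 0.3 on the log2 scale, while single lines lie further from 0, such as T3 in Cxcl1 and T2 in Krt7.

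Interferon response genes are induced when a complex of STAT and IRF factors binds a promoter element called the ISRE, and many encode antiviral proteins. Of 30 such genes tested, 28 rose in metastasis lines (12% of all genes did) and 5 in primary lines (4.46%), and 8 had a called, more positive change in metastasis lines (1.85%). These 8 were Ifit3, Parp9, Gbp3, Stat2, Bst2, Ifih1, Usp18 and Gbp2. The list's median change was 0.43 at the primary and 1.52 at the metastasis site, against 0.03 and 0.02 over all genes tested. Of the 30, 13 were expressed at both sites, and the other 17 had a mean under 1 CPM in primary lines.

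Promoter sequence is shown for 4 of these genes, where the core of the ISRE lay upstream of the start. The genes are listed as interferon targets, so a high share of this core was to be expected. RefSeq promoter windows of GRCm38.p6 (250 bases before to 50 after the start) were found for 6 of the 8 and for 21 of the 30. The core GAAANNGAA, searched on both strands, was in 6 of those 6 and in 14 of those 21 (66.7%), against 954 of 11213 tested genes with a window (8.51%) and 8.56% of all 32851 windows. By class it was in 11 of 88 metastasis-only genes that rose (12.5%) and 4 of 49 that fell (8.16%). It was in 4 of 28 same-direction genes that rose more in metastasis lines (14.3%). For opposite and primary-only genes with a window it was in 0 of 15 and 0 of 19, too few genes to differ from the share of all tested genes. Stretches of up to 30 bases around each upstream match follow, with matches in capitals, read 5′ to 3′ on the strand of the gene.
Ifit3 (chr19:34583344-34583465, plus strand): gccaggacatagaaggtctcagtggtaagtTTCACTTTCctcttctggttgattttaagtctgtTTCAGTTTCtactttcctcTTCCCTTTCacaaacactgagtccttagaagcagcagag
Stat2 (chr10:128270248-128270315, plus strand): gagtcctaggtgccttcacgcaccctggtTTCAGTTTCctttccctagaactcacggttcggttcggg
Bst2 (chr8:71537558-71537632, minus strand): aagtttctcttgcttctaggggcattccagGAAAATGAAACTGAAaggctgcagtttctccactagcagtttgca
Ifih1 (chr2:62646329-62646397, minus strand): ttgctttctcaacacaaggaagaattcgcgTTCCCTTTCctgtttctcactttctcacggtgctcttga
The 3 matches of Ifit3 lie between -155 and -102 from the start, that of Stat2 at -221, the overlapping pair of Bst2 at -130 and -124 and that of Ifih1 at -112. A match describes these letters and shows no binding.

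Stat2, itself a subunit of the factor that binds the ISRE, rose from 11.3 to 45.5 CPM in M1, from 5.27 to 14.9 in M2 and from 22.97 to 90.2 in M3. In primary lines it also rose, from 6.91 to 10.8 CPM in T1, from 8.32 to 10.3 in T2 and from 7.46 to 13.8 in T3, and the difference was 1.22 ± 0.21 (SE, edgeR adjusted p = 0.0214). Ifit3, an antiviral tetratricopeptide protein, rose from 13.2 to 66.4 CPM in M1, from 1.22 to 11.5 in M2 and from 51.6 to 454 in M3, while in primary lines it lay at 0.261 to 3.42 CPM, on 10 to 128 fragments. Its near-identical copy Ifit3b may affect its count. Bst2, the virion tether tetherin, rose from 8.62 to 30.3 CPM in M1, from 14.5 to 26.9 in M2 and from 328 to 631 in M3 and had -0.11 ± 0.17 in primary lines, a difference of 1.30 ± 0.24 (SE, edgeR adjusted p = 0.0245). Eif2ak2, the double-stranded RNA sensor kinase PKR, was metastasis-only too, with 0.81 ± 0.09 against -0.11 ± 0.09 and a difference of 0.91 ± 0.12 (SE, edgeR adjusted p = 0.00924). M3 had the highest level of Ifit3, Bst2, Stat2 and Eif2ak2 among the 3 metastasis lines with either treatment.

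Ifih1, the RNA sensor MDA5, and Parp9, a mono-ADP-ribosyltransferase, changed in the same direction at both sites, by 1.29 and 1.45 in metastasis and 0.45 and 0.50 in primary lines. Dtx3l, on the other strand of Parp9, held 71.6% as many fragments, and the exons share bases. Gbp2, Gbp3 and Usp18 stood under 1.19 CPM in all primary libraries and did not count as expressed at both sites. Irf1 and Irf9 rose in metastasis lines by 1.22 and 1.01, and their interactions of 0.92 and 0.71 did not pass (edgeR adjusted p = 0.0582 and 0.251). Of the 8 calls, those that remained numbered 0, 2 and 1 genes when T1, T2 or T3 was left out and 8, 5 and 2 when M1, M2 or M3 was. The summed level of leukocyte markers was lower with PLX4720 in metastasis lines (10.1 to 20.1 CPM, against 27.7 to 47.5 CPM with DMSO), with 16 of its 21 genes under 1 CPM everywhere. Most of that fall lay in Cd53 and Cd14. Cd53 went from 31.4 to 7.91 CPM in M1, from 6.25 to 0.0303 in M2 and from 13.0 to 0.611 in M3. Cd14 went from 12.1 to 8.27, from 17.8 to 5.91 and from 29.0 to 10.2 CPM.

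Antigen presentation genes followed the same side. Of 16 tested, 11 were expressed at both sites. Of the 16, 14 rose in metastasis lines (12% of all genes did) and 2 in primary lines (4.46%), and 3 had a more positive change in metastasis lines (1.85%): the proteasome activator Psme2, the immunoproteasome subunit Psmb10 and the peptide-trimming enzyme Erap1. Psmb10 rose from 17.2 to 34.3 CPM in M1, from 17.8 to 33.5 in M2 and from 33.98 to 96.9 in M3, and went from 20.8 to 17.1 CPM in T1, from 19.2 to 21.8 in T2 and from 15.4 to 12.5 in T3 in primary lines, with a difference of 1.28 ± 0.21 (SE, edgeR adjusted p = 0.0179). Psme2 had a difference of 0.80 ± 0.13 (SE, edgeR adjusted p = 0.0156), and a near-identical copy, Psme2b, may affect its count. Erap1 shares exon bases with Cast on the other strand, which held 259% as many fragments. Of the 3 calls, those that remained numbered 0, 1 and 0 genes when T1, T2 or T3 was left out and 3, 1 and 1 when M1, M2 or M3 was.

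Cholesterol is made from acetyl-CoA through mevalonate by enzymes that the factor SREBP2 induces together. Of 24 genes of this pathway, all expressed at both sites, 15 rose (12% of all genes did) and 0 fell (8.36%) in metastasis lines, while 0 rose (4.46%) and 1 fell (3.77%) in primary lines. The list's median change was -0.06 at the primary and 0.51 at the metastasis site. A more positive change in metastasis lines (1.85% of all genes) was called for Acat2, Hmgcs1, Mvk, Mvd and Lss, which are all metastasis-only genes and cover early and late steps. Hmgcs1, the HMG-CoA synthase, rose from 254 to 438 CPM in M1, from 332 to 550.3 in M2 and from 244 to 613 in M3. At the primary site it went from 491 to 529.6 CPM in T1, from 616 to 628 in T2 and from 377 to 444 in T3, and the difference was 0.82 ± 0.17 (SE, edgeR adjusted p = 0.0422). Mvk, mevalonate kinase, rose from 75.6 to 120.4 CPM in M1, from 46.3 to 88.7 in M2 and from 33.9 to 89.1 in M3, with -0.04 ± 0.13 in primary lines. The sterol element core TCACNCCAC was in the promoter window of 1 of 16 listed genes with a window, Hmgcs1. Among tested genes with a window it was in 158 of 11213 (1.41%).

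Acat2, Lss and Mvd were higher with PLX4720 in 3 of 3 metastasis lines and lower in 3 of 3 primary lines, though their primary changes of -0.22, -0.26 and -0.19 did not pass. Acat3 is a near-identical neighbour of Acat2 and may affect its count. Sqle, which adds oxygen to squalene, had a difference of 0.42 ± 0.18 that did not pass either (edgeR adjusted p = 0.314) and ran from 0.18 to 0.53 with 1 line left out. Of the 5 calls, those that remained numbered 0, 0 and 1 genes when T1, T2 or T3 was left out and 5, 2 and 2 when M1, M2 or M3 was.

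YAP and TAZ are coactivators that bind DNA through TEAD factors and respond to cell shape and tension. Of 23 of their target genes, 16 rose in metastasis lines (12% of all genes did) and 7 in primary lines (4.46%), and 5 had a more positive change in metastasis lines (1.85%): F3, Amotl2, Ccn1, Crim1 and Gas6. F3, tissue factor, which starts blood clotting, rose from 37.96 to 169 CPM in M1, from 33.98 to 136 in M2 and from 22.1 to 111 in M3. It went from 33.95 to 29.1 CPM in T1, from 93.8 to 39.5 in T2 and from 135 to 133 in T3 in primary lines, lower in 3 of 3 with -0.49 ± 0.20 (edgeR adjusted p = 0.166), and the difference was 2.65 ± 0.29 (SE, edgeR adjusted p = 0.00467). Amotl2 and Ccn1, a scaffold of the Hippo pathway and a secreted matrix protein, rose at both sites, by 2.16 and 2.17 in metastasis and 0.79 and 0.93 in primary lines, with differences of 1.38 ± 0.16 (SE, edgeR adjusted p = 0.00664) and 1.24 ± 0.16 (SE, edgeR adjusted p = 0.00835).

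The TEAD core GGAATG, searched on both strands, was in the promoter windows of Amotl2, Ccn1 and Crim1, that is 3 of these 5 genes and 8 of the 17 listed genes with a window (47.1%). Among tested genes with a window the share was 14.8% (1660 of 11213). As the list is made of YAP and TAZ targets, a share above that was to be expected. These 3 stretches are shown since their genes are called in the group, with the match in capitals.
Amotl2 (chr9:102717709-102717774, plus strand): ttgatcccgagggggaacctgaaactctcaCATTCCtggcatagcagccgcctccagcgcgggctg
Ccn1 (chr3:145650053-145650118, minus strand): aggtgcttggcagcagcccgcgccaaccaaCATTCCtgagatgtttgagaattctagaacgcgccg
Crim1 (chr17:78200139-78200204, plus strand): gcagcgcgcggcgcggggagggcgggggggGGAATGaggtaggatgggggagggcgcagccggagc
The matches begin at -65, -103 and -79 from the start. Crim1, a transmembrane binder of BMPs, had log2 changes of 1.32 ± 0.10 and 0.32 ± 0.10, and Fez2 on the other strand, which shares exon bases with it, held 39.3% as many fragments. Gas6, a ligand of the AXL receptor, was under 5.7 CPM in every metastasis library. Of the 5 calls, those that remained numbered 4, 3 and 5 genes when T1, T2 or T3 was left out and 5, 5 and 4 when M1, M2 or M3 was.

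TGF-beta targets and matrix genes were on the same side. Of 25 TGF-beta targets, 18 rose in metastasis lines (12% of all genes did) and 3 in primary lines (4.46%), and 5, among them Smad6, Pmepa1, Id2 and Col1a1, had a more positive change in metastasis lines (1.85%). Col1a1 was at 0.529 to 5.08 CPM in primary libraries, highest in T3, and at 4.99 to 639 CPM in metastasis libraries. Its interaction was not called without T1, T2, T3 or M2 (edgeR adjusted p up to 0.111), nor with limma-voom. Smad6, an inhibitory SMAD, rose from 10.3 to 37.9 CPM in M1, from 8.30 to 38.6 in M2 and from 4.24 to 30.1 in M3, with 0.59 ± 0.16 in primary lines and a difference of 1.70 ± 0.23 (SE, edgeR adjusted p = 0.0103). Pmepa1 and Id2 were metastasis-only genes with differences of 0.91 and 0.82. Of the 5 calls, those that remained numbered 1, 2 and 1 genes when T1, T2 or T3 was left out and 5, 3 and 4 when M1, M2 or M3 was. The ligands themselves did not show a called difference: it was -0.13 ± 0.41 for Tgfb1, 0.25 ± 0.26 for Tgfb2 and -0.17 ± 0.26 for Tgfb3 (edgeR adjusted p = 0.951, 0.768 and 0.859). With 1 line left out these ran from -0.66 to 0.15, -0.06 to 0.42 and -0.45 to -0.07. Of 25 TGF-beta ligands, receptors and activators, 2 had a more positive change in metastasis lines (1.85% of all genes did). These were Thbs1 and Itgb5, both activators of latent TGF-beta, by 1.27 ± 0.18 (SE, edgeR adjusted p = 0.0111) and 0.78 ± 0.14 (SE, edgeR adjusted p = 0.0226). That of Thbs1 missed without T2, and that of Itgb5 in each fit that left out a line other than M1, with edgeR adjusted p up to 0.0546 and 0.145.

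Of 30 collagen and matrix genes tested, 8 had a more positive change in metastasis lines (1.85% of all genes did) and 0 a more negative one, and limma-voom called 5. Of these 8, Col3a1, Col11a1 and Bgn were not expressed at both sites. Col5a1, a fibrillar collagen, rose from 362 to 836 CPM in M1, from 294 to 834 in M2 and from 278 to 882 in M3, against a move from 11.00 to 14.2 CPM in T1, from 33.3 to 36.2 in T2 and from 65.5 to 62.7 in T3 in primary lines, a difference of 1.32 ± 0.16 (SE, edgeR adjusted p = 0.00736). Col12a1 rose at both sites, by 3.51 and 1.41, and Col6a1 by 1.64 in metastasis lines with 0.33 ± 0.15 in primary lines. Of 16 smooth muscle and contractile genes, 16 rose in metastasis lines (12% of all genes did) and 6 in primary lines (4.46%). The interaction was called for Cnn2, Mylk, Vcl and Lmod1 (2.94% of all genes had a called interaction), of which Lmod1 was not expressed at both sites. The calls left were 1, 0 and 1 genes when T1, T2 or T3 was left out and 4, 1 and 2 when M1, M2 or M3 was. Of 17 integrins, 4 had a more positive change (1.85% of all genes; Itga1, Itga5, Itgb5 and Itga11, the last not expressed at both sites). The laminin receptor Itga7 had a more negative one (1.09%), -1.37 ± 0.26 (SE, edgeR adjusted p = 0.0303), and Mettl7b on the other strand, which shares exon bases with it, held 38.7% as many fragments. The integrin calls left were 1, 2 and 0 genes when T1, T2 or T3 was left out and 5, 1 and 3 when M1, M2 or M3 was. In the same libraries the summed fibroblast and stellate markers were 2.51 to 77.3 CPM at the primary site and 2303 to 6069 CPM with DMSO and 6855 to 15595 CPM with PLX4720 at the metastasis site, and their part in these results was not tested. The interaction of matrix genes remained called for 3, 3 and 5 genes when T1, T2 or T3 was left out and 8, 5 and 5 when M1, M2 or M3 was.

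**Figure D5:**
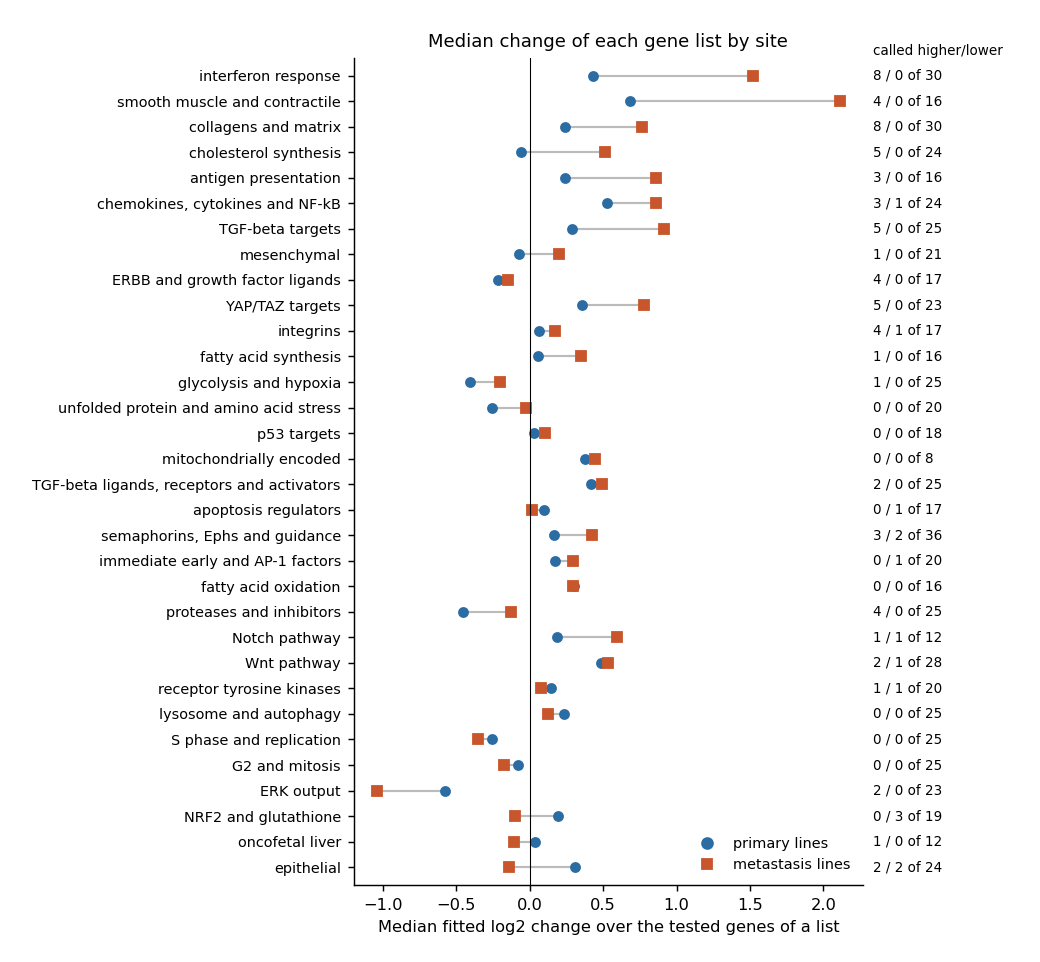
Median fitted log2 change with PLX4720 over the tested genes of each list, in primary lines (blue circles) and metastasis lines (orange squares), ordered by the median interaction, with the number of genes called higher and lower in metastasis lines at the right. Lists of cell type markers are not drawn. Wide gaps are those of the contractile (0.69 and 2.11) and interferon (0.43 and 1.52) lists, and edgeR called 0 genes of the cell cycle, lysosome, p53 and unfolded protein lists, where DESeq2 called 1 p53 target.

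Among genes that moved the same way at both sites, the largest interactions were mostly increases in metastasis lines. Cyp1b1, a cytochrome P450 induced through Ahr, rose from 0.806 to 11.6 CPM in M1, from 3.33 to 63.6 in M2 and from 0.697 to 26.9 in M3, and from 2.95 to 10.98 CPM in T1, from 6.24 to 20.8 in T2 and from 54.2 to 146 in T3 in primary lines, with a difference of 2.76 ± 0.30 (SE, edgeR adjusted p = 0.00448). Edn1, the vasoconstrictor endothelin 1, rose by 4.36 and 1.52. Sh2d5, an adaptor protein, and Upp1, uridine phosphorylase, fell at both sites. Sh2d5 fell from 55.7 to 3.15 CPM in M1, from 40.05 to 1.46 in M2 and from 69.9 to 2.94 in M3, against a move from 4.90 to 1.15 CPM in T1, from 4.42 to 1.53 in T2 and from 17.9 to 5.32 in T3, a difference of -2.70 ± 0.23 (SE, edgeR adjusted p = 0.00248). Upp1 fell by 3.92 in metastasis and 1.69 in primary lines. The reverse order was rarer, in 5 genes. Capg and Nav3, which bind actin and microtubules, fell more in primary lines, by 1.24 and 1.70, than in metastasis lines, by 0.56 and 0.92. Entpd5, an endoplasmic reticulum nucleotidase, rose by 1.18 in primary and 0.31 in metastasis lines. The interaction of Entpd5 missed without T2 (-0.85, edgeR adjusted p = 0.0685), that of Edn1 without T2, T3 or M3, and those of Capg and Nav3 in each fit that left out a line other than M1.

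Several lists held no called difference between sites. Of 25 genes of S phase and replication 11 fell in metastasis lines and 1 in primary lines. Of 25 genes of G2 and mitosis 6 and 0 fell (8.36% and 3.77% of all genes did). In both lists edgeR called 0 interactions, against 2.94% over all genes. The medians of the interaction were -0.07 and -0.10. At an unadjusted p under 0.05 they held 2 and 1 genes, and DESeq2 and limma-voom also called 0. Lists of p53 targets, lysosome genes, fatty acid oxidation, the unfolded protein response and mitochondrially encoded genes had 0 edgeR calls too, with 2, 3, 4, 4 and 1 genes at an unadjusted p under 0.05. DESeq2 called 1 gene each among the p53 targets, fatty acid oxidation and mitochondrially encoded genes, and limma-voom 0 in these lists. The genes of the model were measured in the same contrast. Braf had an interaction of 0.50 ± 0.19, Trp53 of -0.21 ± 0.26 and Cdkn2a of 0.37 ± 0.32 (edgeR adjusted p = 0.26, 0.809 and 0.694). Ndufb2 on the other strand of Braf held 82.1% as many fragments, and the interaction of Cdkn2a ran from 0.23 to 2.02 with 1 line left out. Those of Braf and Trp53 ran from 0.33 to 0.67 and from -0.40 to -0.10.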

How the data were processed

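RNA from 12 cultures was measured by RNA sequencing, 1 library per line and treatment. The deposited values are raw fragment counts per gene, made with featureCounts 1.5.2 in paired mode (options -p and -B, exons of Ensembl 84, GRCm38), per the file headers. No strand option is in that command, although the labels name a stranded kit. A gene may therefore gain fragments from, or lose them through, a gene that overlaps it on the opposite strand. Of 132 genes checked, 38 have such a neighbour, and in 9 it held at least 10% as many fragments. No label or header used here names the aligner.

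Of 47729 genes listed, 47224 had a symbol in the reference tables. Counts were filtered with filterByExpr over the 4 groups, scaled by TMM and tested with edgeR 4.0.16 in R 4.3.3 (quasi-likelihood test, terms for line and for treatment at each site, Benjamini-Hochberg adjustment over 16555 genes, threshold 0.05). The line block rests on both cultures of a line sharing its cells, whose deviations from the group mean correlated at 0.839 to 0.923. Libraries of the same number at different sites correlated at -0.0982 to 0.0120. No libraries of a group agreed within sampling noise (smallest chi-square over its degrees of freedom, 142). Scripts were tested on simulated data. Alternatives were other scaling, no filter, DESeq2 1.42.0, limma-voom (limma 3.58.1), no line block, each line left out, and subsets of lines.

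Named genes are protein-coding and expressed at both sites: up to 10 opposite genes per direction and up to 8 one-site genes per direction by size (all 3 lines of that site in one direction, no overlap between sites), up to 4 same-direction genes per subclass, up to 4 per list by interaction p, and Tgfb1, Tgfb2, Tgfb3, Braf, Trp53 and Cdkn2a. Others were named after their values were seen. The contrast and gene lists were chosen with earlier results of these data known. Promoter sequences are from RefSeq, GRCm38.p6, and were searched for cores of the ISRE, the sterol element, AP-1 and TEAD. The AP-1 core TGANTCA was in 776 of 11213 tested genes with a window (6.92%). By class it was in 3 of 15 opposite, 3 of 19 primary-only and 3 of 28 same-direction genes that rose more in metastasis lines. Of metastasis-only genes, 3 of 88 that rose and 9 of 49 that fell held it. Some genes are not reported here.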

Additional observations from a re-analysis of the deposited data

Results flagged for a closer look

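Every result below was noted because the responses of the sites differed by the test of the interaction itself, which 487 genes passed (edgeR adjusted p under 0.05). Values in parentheses are the log2 change with PLX4720 in metastasis lines minus that in primary lines. A one-site class means that the other site did not pass and moved by under 0.3, not that it stood still.

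Genes with opposite changes were, with a more positive change in metastasis lines, S1pr1 (4.54), Cdh17 (2.86), Aqp5 (2.61), Megf10 (2.06), F2r (1.34), Cadm1 (1.22), Oasl1 (1.18), Adam9 (0.999) and Ehbp1l1 (0.88). With a more negative change they were Myo1e (-0.79), Gclc (-0.85), Osbpl3 (-0.92), Tspan15 (-1.002), 4930402H24Rik (-1.09), Slc6a8 (-1.13), Ifngr2 (-1.22), Camk1d (-1.32), Rab7b (-1.42), Lpin3 (-1.66), Igsf11 (-1.70), Jun (-1.96), Lancl3 (-2.06), Slc22a4 (-2.17), Pmaip1 (-2.23) and Adamts7 (-2.41).

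Genes of the metastasis-only class were, with a more positive change in metastasis lines, Krt7 (4.83), Adra1d (3.12), Igf2bp1 (3.11), Epha4 (2.42), Gas6 (2.41), Cxcl1 (2.30), Cdc42ep3 (2.21), Kirrel3 (2.19), Gulp1 (2.03), Kif21b (1.99), Acss2 (1.57), Cnn2 (1.40), Col5a1 (1.32), Bst2 (1.30), Egfr (1.29), Psmb10 (1.28), Mvk (1.04), Mvd (0.998), Acat2 (0.94), Eif2ak2 (0.91), Pmepa1 (0.91), Itga5 (0.89), Lrp6 (0.88), Lss (0.85), Hmgcs1 (0.82), Id2 (0.82), Psme2 (0.80), Spry1 (0.79), Itgb5 (0.78), Nrp1 (0.72) and Erap1 (0.61). With a more negative change they were Gsr (-0.80), Srxn1 (-0.95), Add2 (-2.36), Padi2 (-2.51), Dkk2 (-2.60), Gfra1 (-2.71), Il33 (-2.79), Pls1 (-3.10), Nefl (-3.77) and Wnt7b (-5.00).

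Genes of the primary-only class were, with a more positive change in metastasis lines, Calcrl (2.04), Zfp365 (1.495), Fkbp11 (1.01), Nt5c3 (0.85), Il4ra (0.73), Fam126b (0.73), Rps6ka2 (0.66) and Tpst1 (0.63). With a more negative change they were Eps8l2 (-0.88), Ahr (-1.23), Hdac5 (-1.24), Aspa (-1.34), Mras (-1.37), Prag1 (-1.38), Aldh3a1 (-1.51), Rdh10 (-1.56) and Cbr3 (-1.86).

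Genes that changed the same way by unequal amounts were, with a more positive change in metastasis lines, Edn1 (2.84), Cyp1b1 (2.76), Col12a1 (2.10), Amotl2 (1.38), Thbs1 (1.27), Ccn1 (1.24), Stat2 (1.22), Nrg1 (1.13), Parp9 (0.95), Ifih1 (0.85), Nav3 (0.78) and Capg (0.68). With a more negative change they were Entpd5 (-0.87), Upp1 (-2.24) and Sh2d5 (-2.70).

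Genes expressed at both sites and in none of these classes were, with a more positive change in metastasis lines, Col1a1 (3.10), Cxcl5 (3.01), Has2 (2.66), F3 (2.65), Ifit3 (2.24), Mylk (2.11), Itga1 (1.78), Smad6 (1.70), Fzd1 (1.54), Smoc2 (1.47), Vegfc (1.42), Col6a1 (1.32), Crim1 (0.999) and Vcl (0.95). With a more negative change they were Aldh3a2 (-0.92), Wwtr1 (-1.11), Glul (-1.26), Itga7 (-1.37), Tbx3 (-1.42) and Bmp2 (-4.17).

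Genes under 1 CPM at one site were, with a more positive change in metastasis lines, Gbp3 (2.51), Gbp2 (1.87) and Usp18 (1.51). With a more negative change they were Fgfr3 (-2.31).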

How the results depend on the processing

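Every interaction among the 487 kept its direction with RLE size factors, total counts, no filter, DESeq2 and limma-voom, and 471, 457, 482, 466 and 444 remained called. Total counts split the calls 281 higher and 245 lower, against 306 and 181. Without a filter 996 interactions were called (591 higher, 405 lower), 2053 genes in primary lines, and 45 opposite, 326 metastasis-only, 54 primary-only and 130 same-direction genes. DESeq2 called 877 (512 and 365), with 325 metastasis-only, 64 primary-only and 111 same-direction genes. With no limit on the other site 284 metastasis-only and 40 primary-only genes were counted. The cause was not tested.

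Without 1 line at a time, interaction calls ran from 122 to 798 (65 to 392 higher, 57 to 406 lower), primary calls from 91 to 2252 and metastasis calls from 1891 to 3091. Opposite genes numbered 3 to 45, metastasis-only 29 to 290, primary-only 4 to 42, same-direction 6 to 123 and opposite by line 646 to 911. T3, M2 and M3 alone gave 296 lower interactions, 444 primary calls, 15 opposite, 36 same-direction and 2401 opposite-by-line genes. T1, T2 and M1 alone gave 1377 (1029 and 348), 3118 primary calls, and 135, 609, 93, 197 and 2595 genes in the 5 classes in the order above. In each subset one site has 1 line, so its calls take their spread from the other site, and a count by line rests on that line.

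Without the replicate block for line, edgeR called 0 interactions (0 higher, 0 lower; 279 had an unadjusted p under 0.05), 1 gene in primary and 15 in metastasis lines, and 0 opposite, 0 metastasis-only, 0 primary-only and 0 same-direction genes. The calls therefore rest on pairing the cultures of a line.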

Other observations

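Genes with a called interaction that fell in none of the classes include several whose primary lines moved the other way without passing the test. Bmp2, a secreted growth factor, fell from 25.7 to 6.74 CPM in M1, from 78.3 to 6.10 in M2 and from 90.98 to 3.93 in M3. In primary lines it went from 23.1 to 44.8 CPM in T1, from 23.2 to 57.9 in T2 and from 54.02 to 58.9 in T3, a log2 change of 0.79 ± 0.39 (edgeR adjusted p = 0.242), and the difference was -4.17 ± 0.60 (SE, edgeR adjusted p = 0.0117). Wwtr1, which encodes the coactivator TAZ, fell by 0.79 in metastasis lines. Its primary value was 0.32 ± 0.14 and its difference -1.11 ± 0.20 (SE, edgeR adjusted p = 0.0245). Of 23 listed YAP and TAZ targets, 5 had a called, more positive change there (1.85% of all genes) and 0 a more negative one (1.09%). The list's median interaction was 0.34, and how its targets relate to Wwtr1 was not tested. Vegfc, a growth factor of lymphatic vessels, rose by 1.09 in metastasis lines, with -0.33 ± 0.15 in primary lines. Mylk, myosin light chain kinase, rose by 1.40, with -0.71 ± 0.27. With 1 line left out, the interaction of Bmp2 remained called in all 6 fits, that of Wwtr1 missed in 3, of Vegfc in 4 and of Mylk in 3 (edgeR adjusted p up to 0.0733, 0.0873 and 0.108).

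In another set the primary lines passed and the metastasis lines did not. Glul, glutamine synthetase, and Tbx3, a T-box factor, are Wnt-responsive genes of liver. Glul rose from 209.5 to 296 CPM in T1, from 77.4 to 161 in T2 and from 185 to 432 in T3, and its metastasis lines were lower with PLX4720 in 3 of 3, with -0.33 ± 0.13 (edgeR adjusted p = 0.113) and a difference of -1.26 ± 0.19 (SE, edgeR adjusted p = 0.0135). Tbx3 rose by 0.82 in primary lines, with -0.60 ± 0.18 in metastasis lines. Has2, a hyaluronan synthase, fell from 1.06 to 0.392 CPM in T1, from 6.90 to 3.08 in T2 and from 28.04 to 2.51 in T3, with 0.46 ± 0.32 in metastasis lines and a difference of 2.66 ± 0.52 (SE, edgeR adjusted p = 0.0341). Smoc2, a matrix-associated calcium-binding protein, fell by 1.13 in primary lines, where T3 alone was above 1 CPM. Aldh3a2, a fatty aldehyde dehydrogenase, rose by 0.55, with -0.37 ± 0.12 in metastasis lines. The interaction of Has2 ran from 1.66 to 3.36 with 1 line left out and missed without T1, M2 or M3 (edgeR adjusted p up to 0.0929). Those of Tbx3 and Aldh3a2 missed in 3 of the 6 fits, of Smoc2 in 2 and of Glul in 1.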
